A study of Mus musculus with 4 samples.

Results

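The 9 genes described here belong to the complement system and were chosen by symbol from the 32285 genes listed in the matrices: C4b, C4a, C3, C1qa, C1qb, C1qc, Serping1, Cd46 and Csmd2. They were followed through nuclei of mouse cortex from Setdb1-CK-cKO animals (2 libraries, called knockout) and wildtype animals (2 libraries), with 1 animal per library. All 4 animals were C57BL/6 mice aged 5 months. The knockout is a conditional one for Setdb1, a methyltransferase of histone H3 lysine 9. The labels do not explain the CK part of its name, and neither the driver nor the cells that recombine are given in the sources used here. Every comparison therefore rests on n = 2 animals per genotype.

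Complement is a cascade of plasma proteins that tags surfaces for removal. C1q recognises a target, the C1 proteases then cleave C4 and C2, and the fragments of C4 and C2 cleave C3, whose product binds covalently to the surface. In the brain, C1q is made mainly by microglia, C4 is known from astrocytes and from neurons, and the cascade is known for its part in the removal of synapses during development. Serping1 encodes the C1 inhibitor, Cd46 a membrane cofactor for inactivation of C3 and C4 fragments that in rodents is best known from sperm, and Csmd2 a large neuronal membrane protein related to Csmd1, a complement inhibitor.

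The libraries held 11790 and 13902 barcodes from knockout animals and 14493 and 14365 from wildtype animals (replicates 1 and 2 in this order, here and in all values below). Their total counts of unique molecular identifiers (UMIs, each 1 captured RNA molecule) were 38503740 and 38314394 in knockout and 45605971 and 42780840 in wildtype libraries. After filtering, 52038 nuclei remained, and 323 barcode sequences occurred in more than 1 library. Clusters were named from marker genes, so each name means nuclei like that type. Cluster 17 carried the microglia markers but kept its number, because its nuclei were shallow (median 853.5 UMIs) and none of those markers was among its 10 leading genes, which included Inpp5d, Dock8, Ly86 and Ikzf1. Both knockout libraries went against their listed sex by Xist and Uty, while the wildtype libraries matched it. By these RNAs replicate 1 was male and replicate 2 female in both genotypes, so replicate number and sex coincide, and each genotype had 1 animal of each sex. Setdb1 itself had 71.1 and 67.0 CPM (counts scaled to a common library total) in knockout and 72.9 and 67.4 CPM in wildtype excitatory-like nuclei. These 3′ counts need not come from a deleted part of the gene and do not check the deletion.

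C4b and C4a are near copies, so reads can be hard to assign. C4b lies on chromosome 17 at chr17:34728380-34743882 (GRCm38, minus strand, protein coding), and C4a on the same strand at chr17:34809092-34823464 (annotated as a processed transcript). The transcripts C4b-201 (5379 bases) and C4a-207 (5371 bases) were identical at 5160 of 5367 aligned bases (96.14%). Of the 5290 windows of 90 bases in C4b-201, 998 (18.87%) occurred exactly in a C4a transcript, and over its last 1000 bases 155 of 911 windows (17.01%) did. The stretch below, the window within a coding exon with the most differences, shows how the copies can be told apart. It lies in exon 21 of 41 of C4b, chr17:34735427-34735516 on the minus strand, from GENCODE vM21, and the capitals mark the 14 of 90 bases that differ.
C4b: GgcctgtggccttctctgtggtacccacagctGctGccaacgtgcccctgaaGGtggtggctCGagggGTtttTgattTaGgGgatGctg
C4a: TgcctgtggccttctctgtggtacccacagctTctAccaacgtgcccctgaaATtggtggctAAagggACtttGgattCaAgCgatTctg

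C4b RNA was higher in knockout nuclei of neuron and astrocyte classes. In excitatory-like nuclei C4b had 22.6 and 27.5 CPM in knockout libraries (583 and 697 UMIs), against 0.407 and 0.527 CPM in wildtype libraries (12 and 15 UMIs). Both knockout libraries were above both wildtype libraries, as for 26.4% of all genes tested there, and the knockout libraries lay close to each other. The log2 fold change was 5.74 ± 0.21 (SE; adjusted p = 3.92e-06, edgeR's quasi-likelihood test with Benjamini-Hochberg adjustment over all genes of the class). The ratio of summed CPM was 54.9, with a counting interval of 37.6 to 83.6. Of the 19143 genes tested in this class, 2.98% passed the threshold in the higher direction. Levels in CPM are scaled with TMM factors unless stated otherwise.

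Inhibitory-like nuclei showed the same direction at a lower level. C4b had 6.33 and 13.1 CPM in knockout libraries and 0.735 and 0.479 CPM in wildtype libraries, with 3 and 2 wildtype UMIs. The knockout libraries were less close to each other here than in excitatory-like nuclei. Knockout exceeded wildtype by a log2 fold change of 3.95 ± 0.55 (edgeR's quasi-likelihood test, adjusted p = 0.00111), where 0.899% of all genes passed in that direction.

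Astrocyte-like nuclei held the highest C4b level of the large classes in both genotypes. C4b had 56.5 and 86.5 CPM in knockout libraries (60 and 105 UMIs), against 19.9 and 11.3 CPM in wildtype libraries (33 and 17 UMIs). Both wildtype libraries thus already held C4b. This was a log2 fold change of 2.19 ± 0.31 (edgeR's quasi-likelihood test, adjusted p = 0.0126), against 0.255% of genes called higher.

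This class joins clusters 14 and 29, which the genotypes fill unequally. Cluster 14 had 472 and 482 knockout and 1028 and 988 wildtype nuclei. Cluster 29, led by Gm48619 and Def8, had 198 and 365 knockout and 17 and 31 wildtype nuclei. Within cluster 14 alone C4b had 37.4 and 67.9 CPM in knockout and 21.2 and 12.7 CPM in wildtype libraries (log2 fold change 1.57 ± 0.33, edgeR's quasi-likelihood test, adjusted p = 0.0342, 0.356% of genes called), a check added after the data were seen. In cluster 29 the knockout libraries had 34 and 67 C4b UMIs and the wildtype libraries 0 and 0, at least 9.42-fold higher at a floor of 3 UMIs over the wildtype group. All 50 wildtype astrocyte-like C4b UMIs were thus in cluster 14.

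In cluster 17, with the microglia markers, C4b had 20.4 and 19.4 CPM in knockout libraries (12 and 16 UMIs) and 3.31 and 1.40 CPM in wildtype libraries (2 and 1 UMIs). Both knockout libraries were above both wildtype libraries, as for 18.7% of all genes tested there, and the counts were small. The log2 fold change of 3.03 ± 0.66 did not pass (edgeR's quasi-likelihood test, adjusted p = 0.438), and the ratio of summed CPM was 8.73 with a counting interval of 2.70 to 44.9. Only 0.0294% of genes passed in this class.

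In oligodendrocyte-like nuclei the genotypes nearly met. C4b had 9.94 and 21.7 CPM in knockout and 9.92 and 2.04 CPM in wildtype libraries, and wildtype replicate 1 was nearly as high as knockout replicate 1. The log2 fold change was 1.34 ± 0.51 (edgeR's quasi-likelihood test, adjusted p = 0.254; 0.614% of genes called). Without wildtype replicate 1 it was 2.87 and without knockout replicate 1 it was 1.85. The smallest value with 1 library left out lay below 1.34 and is given in the last section. With the replicate number as a block it passed at 1.33 (edgeR, adjusted p = 0.0304).

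In the smaller classes C4b did not pass the low-count filter and was not tested. Inhibitory-like nuclei with Meis2 had 14 and 67 UMIs in knockout and 4 and 0 in wildtype libraries, with knockout replicate 2 far above replicate 1. Oligodendrocyte-precursor-like nuclei had 13.4 and 10.6 CPM in knockout and 1.68 and 1.67 CPM in wildtype libraries. Fibroblast-like nuclei overlapped, with 2 and 6 UMIs in knockout and 7 and 4 in wildtype libraries. Mural-like nuclei had 2 and 3 UMIs in knockout and none in wildtype libraries.

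**Figure D1:**
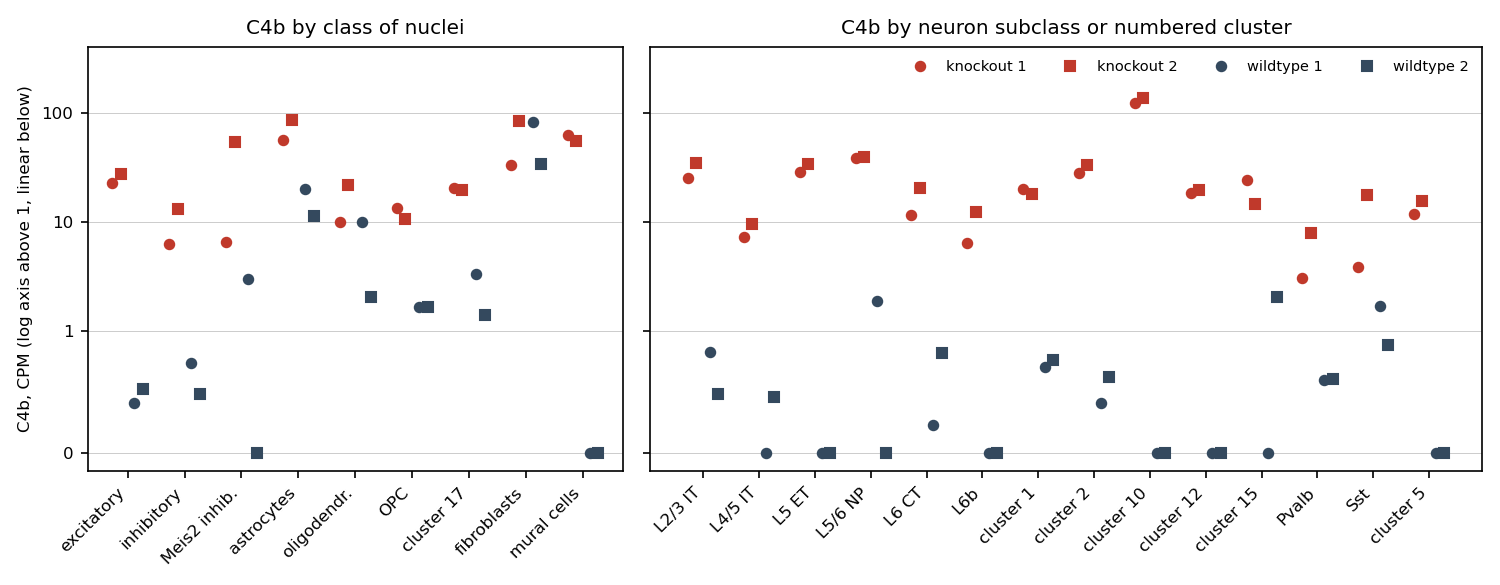
C4b level (CPM, log axis above 1 and linear below) per class and per neuron subclass or cluster, with knockout libraries (red) left of wildtype libraries (dark blue), circles for replicate 1 and squares for replicate 2. Knockout excitatory-like nuclei sit at 22.6 and 27.5 CPM and wildtype ones at 0.407 and 0.527 CPM, while astrocyte-like nuclei are above 10 CPM in all 4 libraries.

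The classes in which C4b UMIs were found had different shares in the genotypes. Excitatory-like nuclei held 79.9% and 68.9% of all C4b UMIs in knockout libraries, against 13.3% and 30.6% in wildtype libraries. Astrocyte-like nuclei held 8.22% and 10.4% in knockout and 36.7% and 34.7% in wildtype libraries. Over all nuclei there were 730 and 1011 C4b UMIs in knockout and 90 and 49 in wildtype libraries.

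Along the excitatory layers C4b rose in all 10 subclasses and clusters in which it could be tested, of 11. The 2 wildtype libraries together held at most 10 C4b UMIs in any of them. C4b thus passed the low-count filter there only through the knockout libraries. That it rose wherever it was tested is therefore largely set by the filter. The share of all genes called higher was 1.44% in L2/3 IT, 1.62% in L4/5 IT, 1.19% in L5 ET, 0.765% in L5/6 NP and 2.81% in L6 CT-like nuclei. In clusters 1, 2, 10, 12 and 15 it was 1.89%, 2.09%, 0.86%, 0.418% and 0.653%. L2/3 IT-like nuclei had 25.2 and 34.6 CPM in knockout and 0.828 and 0.485 CPM in wildtype libraries (log2 fold change 5.50 ± 0.32, edgeR's quasi-likelihood test, adjusted p = 5.75e-05). Cluster 10, led by Pecam1, Ntng1 and Angpt1, stood highest, with 123 and 136 CPM in knockout libraries and no C4b UMI in wildtype libraries. That is at least 32.8-fold higher (edgeR's quasi-likelihood test, adjusted p = 2.64e-10).

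L5 ET-like nuclei, which project out of the forebrain, had 28.6 and 33.9 CPM in knockout and no UMI in wildtype libraries, at least 43.0-fold higher (edgeR, adjusted p = 1.43e-07). L5/6 NP-like nuclei had 38.4 and 39.0 CPM in knockout and 1.90 and 0 CPM in wildtype libraries, a ratio of summed CPM of 40.2 with a counting interval of 6.72 to 1637. L6 CT-like nuclei, which project to the thalamus, had 11.7 and 20.4 CPM in knockout and 0.225 and 0.817 CPM in wildtype libraries (4.93 ± 0.50 on the log2 scale, edgeR, adjusted p = 1.45e-06). The lowest knockout level of a tested excitatory subclass was in L4/5 IT-like nuclei, at 7.29 and 9.66 CPM in knockout against 0 and 0.454 CPM in wildtype libraries (edgeR, adjusted p = 0.00107).

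The remaining excitatory clusters kept numbers. Clusters 1, 2 and 12 had knockout levels between 17.9 and 33.2 CPM and wildtype levels of at most 0.759 CPM, with a largest adjusted p of 0.00167 by edgeR in cluster 12. Cluster 15 had 24.1 and 14.6 CPM in knockout and 0 and 2.07 CPM in wildtype libraries, and its call (edgeR, adjusted p = 0.00702) was lost without wildtype replicate 1 and with DESeq2. DESeq2 called 6 of the 10, missed L4/5 IT, L5/6 NP and cluster 15, and gave no adjusted p in cluster 1. L6b-like nuclei, the deepest cortical layer, could not be tested and had 6.47 and 12.3 CPM in knockout libraries and no UMI in wildtype libraries. Ordered by knockout level, cluster 10 lay above L5/6 NP-like nuclei, and these above all other excitatory subclasses, in both knockout libraries. L5 ET, cluster 2 and L2/3 IT followed with overlapping libraries, then clusters 15, 1 and 12 and L6 CT, again overlapping. L4/5 IT lay below every other tested excitatory subclass in both knockout libraries.

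Among interneurons only the Adarb2-bearing cluster 5 had enough counts for a test, and there too only through the knockout libraries. C4b had 11.9 and 15.5 CPM there in knockout and no UMI in wildtype libraries, at least 11.7-fold higher (edgeR, adjusted p = 0.000248; 0.484% of genes called higher). Pvalb-like nuclei had 3.10 and 7.87 CPM in knockout and 0.597 and 0.604 CPM in wildtype libraries. Sst-like nuclei had 3.89 and 17.8 CPM in knockout and 1.71 and 0.884 CPM in wildtype libraries. Both subclasses had few UMIs and no test.

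Whether C4b RNA was spread over many nuclei was described in nuclei of at least 1000 UMIs, each thinned to 1000, and shallower nuclei were left out. Of the excitatory-like nuclei, this left out 16 and 32 in knockout and 37 and 26 in wildtype libraries, and of the astrocyte-like nuclei 49 and 239 in knockout and 82 and 153 in wildtype libraries. Of excitatory-like nuclei, 2.31% (exact Clopper-Pearson 95% interval 1.94 to 2.73%) and 2.84% (2.47 to 3.25%) had a C4b UMI in knockout libraries, against 0.0592% (0.0161 to 0.152%) and 0.0826% (0.0303 to 0.180%) in wildtype libraries. Unthinned, the shares were 8.64% and 8.21% in knockout and 0.177% and 0.206% in wildtype libraries. Intervals and floors cover counting error only. Median depths of the excitatory-like nuclei used were 3952 and 3167 UMIs in knockout and 4060 and 3591 in wildtype libraries.

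Most positive nuclei held a single UMI. Knockout replicate 1 had 435 excitatory-like nuclei with 1 C4b UMI, 58 with 2 and 10 with at least 3. Knockout replicate 2 had 507 with 1, 78 with 2 and 10 with at least 3, and neither wildtype library had a nucleus with more than 1.

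Astrocyte-like nuclei were positive more often at the same depth, at 4.83% and 7.73% in knockout and 1.97% and 0.924% in wildtype libraries. Cluster 10 reached 14 of 108 and 9 of 81 nuclei in knockout libraries and 0 of 95 and 0 of 89 nuclei in wildtype libraries, which allow shares of nuclei with a UMI of up to 3.16% and 3.37% at this depth (3 over the number of nuclei). Oligodendrocyte-like nuclei were shallow, with class medians of 1038.5 and 871 UMIs in knockout and 990 and 960 in wildtype libraries, so that 608 and 906 knockout and 989 and 1105 wildtype nuclei were left out. The rest had a C4b UMI in 1.04% and 1.61% of nuclei in knockout and 1.30% and 0.118% in wildtype libraries.

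**Figure D2:**
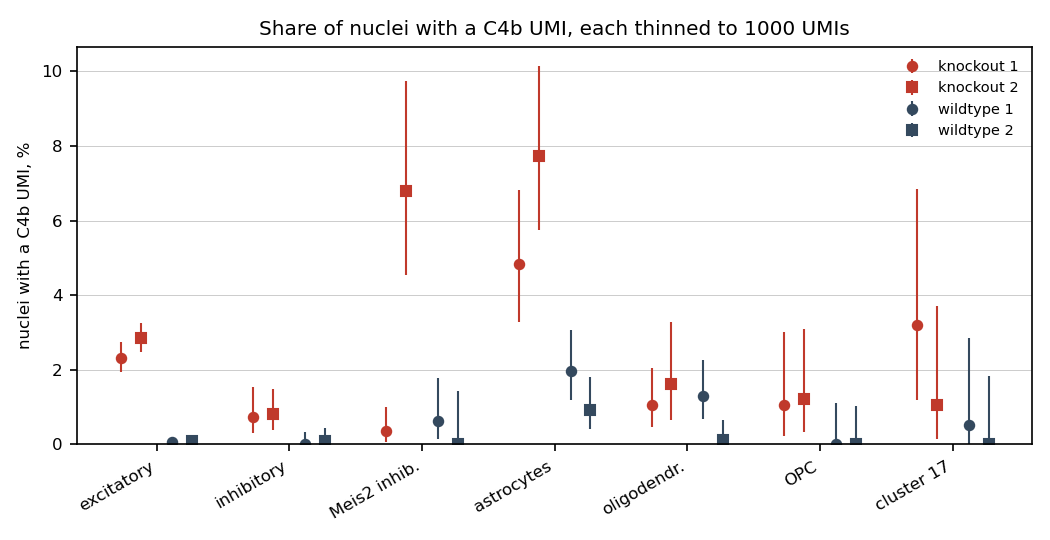
Share of nuclei (percent) with at least 1 C4b UMI after thinning to 1000 UMIs, by class, with exact 95% intervals, knockout (red) left of wildtype (dark blue) and circles and squares for replicates 1 and 2. Excitatory-like nuclei stand at 2.31% and 2.84% in knockout and below 0.1% in wildtype libraries.

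RNA of excitatory neurons was also counted in nuclei of other classes. After thinning, a UMI of Slc17a7, the vesicular glutamate transporter of excitatory neurons, was found in 22.7% and 24.6% of knockout and 21.5% and 24.0% of wildtype excitatory-like nuclei. It was found in 23.4% and 29.2% of knockout and 22.9% and 31.7% of wildtype oligodendrocyte-like nuclei, which should lack it. As a share of the excitatory level (plain CPM, no TMM factors), Slc17a7 in oligodendrocyte-like nuclei was 112% and 132% in knockout libraries, and C4b there was 42.4% and 76.9%. In inhibitory-like nuclei Slc17a7 was at 44.0% and 48.6% and C4b at 27.8% and 47.2%. In cluster 17 Slc17a7 was at 118% in both knockout libraries and C4b at 87.1% and 66.4%. In astrocyte-like nuclei Slc17a7 was at 74.2% and 101%, while C4b was at 245% and 306%. Slc17a7 was the only excitatory marker whose values are printed beside C4b here. The levels of Neurod6 and Nrgn were set against the excitatory level in the same way, and their values are not given. The part of free RNA in the C4b level of classes other than the excitatory-like one was not tested.

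Among knockout excitatory-like nuclei, detection of other genes was set beside that of C4b, at 1000 UMIs per nucleus. Setdb1 was detected in 7.46% of nuclei with and 7.04% without a C4b UMI in replicate 1, and in 7.80% with and 6.47% without in replicate 2. Csmd2 was detected in 38.1% with and 42.2% without in replicate 1, and in 40.5% with and 40.9% without in replicate 2. C1qa was detected in 1.49% with and 1.25% without in replicate 1, and in 3.41% with and 2.47% without in replicate 2. The exact 95% intervals of each pair overlapped for these 3 genes.

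The genotype effect on C4b was then compared between classes. The log2 fold change in excitatory-like nuclei exceeded that in astrocyte-like nuclei by 3.56 ± 0.39 (edgeR's quasi-likelihood test of the genotype by class term, adjusted p = 0.000107, 0.11% of genes called) and that in oligodendrocyte-like nuclei by 4.40 ± 0.52 (adjusted p = 9.41e-14, 0.827% called). Against fibroblast-like nuclei, with few UMIs, it was 5.72 ± 0.98 (adjusted p = 4.44e-05, 0.0392% called). The spread in these fits was partly or wholly pooled over genes and rests on 4 animals, so very small p values do not measure replication. Without wildtype replicate 1 the difference from oligodendrocyte-like nuclei was 2.68 (adjusted p = 0.466) and that from fibroblast-like nuclei 4.90 (0.0642), and neither passed. The differences from inhibitory-like nuclei (1.76 ± 0.84, adjusted p = 0.588, 0.722% called) and from cluster 17 (2.64 ± 1.16, adjusted p = 1, 0.0632% called) did not pass in the same test. Nor did those from Meis2 inhibitory-like nuclei (2.14 ± 1.48), oligodendrocyte-precursor-like nuclei (2.90 ± 1.46) and mural-like nuclei (-5.55 ± 15.5), each with an adjusted p of 1 by edgeR. Over the 8 comparisons per gene, none of the other tested members passed (56 tests with edgeR, of which 6 had an unadjusted p under 0.05).

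C4a, the near copy of C4b known in mice as the sex-limited protein, did not follow it. It had 2.64 and 2.60 CPM in knockout and 2.31 and 1.83 CPM in wildtype excitatory-like nuclei. Both knockout libraries lay just above both wildtype libraries, as for 26.4% of all genes tested there. The log2 fold change was 0.34 ± 0.21 (edgeR's quasi-likelihood test, adjusted p = 0.409). It could be tested in 1 class and 2 excitatory subclasses or clusters and passed in none (0 at an unadjusted p under 0.05, 0 with DESeq2). As C4a shares 17.01% of the last windows of C4b exactly, reads in those windows cannot be told apart.

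C3 (chr17:57203970-57228136, minus strand), the central component on which the pathways converge, had 1 and 3 UMIs over all nuclei in knockout and 1 and 3 in wildtype libraries. It passed no filter in any class and was not tested.

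C1qa, C1qb and C1qc encode the 3 chains of C1q and lie side by side on chromosome 4, at chr4:136895917-136898803, chr4:136880129-136886187 and chr4:136889804-136893065, on the minus strand. The start regions of C1qb and C1qc are shown because all 3 genes had their highest level in the same cluster. RefSeq (GRCm38.p6) gives them as 300 bases each, 250 before and 50 after the start, and capitals mark GAGGAA or its reverse complement TTCCTC, the core that PU.1, a myeloid factor, is known to bind.
C1qb: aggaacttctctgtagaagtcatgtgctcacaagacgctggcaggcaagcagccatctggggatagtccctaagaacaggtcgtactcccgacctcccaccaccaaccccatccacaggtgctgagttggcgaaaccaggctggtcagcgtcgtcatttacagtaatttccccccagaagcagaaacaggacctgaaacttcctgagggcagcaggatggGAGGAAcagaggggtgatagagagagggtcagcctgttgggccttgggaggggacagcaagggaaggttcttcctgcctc
C1qc: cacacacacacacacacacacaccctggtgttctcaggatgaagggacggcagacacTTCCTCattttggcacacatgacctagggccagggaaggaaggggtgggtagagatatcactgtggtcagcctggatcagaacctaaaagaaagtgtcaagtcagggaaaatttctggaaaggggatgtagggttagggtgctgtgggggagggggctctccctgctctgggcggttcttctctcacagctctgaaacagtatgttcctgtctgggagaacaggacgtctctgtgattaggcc
C1qb (chr4:136886151-136886450) had 1 match and C1qc (chr4:136892865-136893164) 1 match over both strands. The motif was present in 9151 of 32544 promoters (28.12%), so a match sets neither gene apart. The promoters of C3 and Cd46 had none in these windows, and 4 of the 9 members had an entry.

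C1q RNA was highest in cluster 17, the nuclei with microglia markers. C1qa had 220 and 214 CPM there in knockout and 152 and 138 CPM in wildtype libraries, and both knockout libraries were above both wildtype ones, as for 18.7% of all genes tested there. C1qb had 240 and 185 CPM in knockout and 172 and 159 CPM in wildtype, and C1qc 193 and 155 CPM in knockout and 137 and 110 CPM in wildtype. None passed (log2 fold changes 0.58 ± 0.20, 0.35 ± 0.21 and 0.49 ± 0.22; edgeR's quasi-likelihood test, adjusted p = 0.839, 0.854 and 0.839).

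The microglia markers summed to 2495 and 1870 CPM in knockout and 2429 and 2011 CPM in wildtype cluster 17, with none of the 6 at 0. They summed to 129 and 136 CPM in knockout and 104 and 116 CPM in wildtype excitatory-like nuclei. Most of that sum was P2ry12, with 2050 and 2263 UMIs there in knockout and 1850 and 1924 in wildtype libraries. Excitatory-like nuclei held 70.4% and 67.8% of all P2ry12 UMIs in knockout and 67.0% and 68.6% in wildtype libraries. The sum there thus mainly follows P2ry12 and not the microglia markers in general. Of C1qa UMIs, cluster 17 held 18.2% and 15.7% in knockout and 13.98% and 14.8% in wildtype libraries, whereas of Inpp5d UMIs it held 77.8% and 79.2% in knockout and 76.8% and 77.2% in wildtype libraries.

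In excitatory-like nuclei C1q RNA was low, with both knockout libraries above both wildtype ones for C1qa and C1qb, as for 26.4% of all genes tested there. C1qa had 12.9 and 21.9 CPM in knockout and 9.70 and 11.8 CPM in wildtype libraries (0.69 ± 0.23 on the log2 scale, edgeR's quasi-likelihood test, adjusted p = 0.135). C1qb had 12.3 and 18.8 CPM in knockout and 8.14 and 11.6 CPM in wildtype libraries (0.65 ± 0.23, adjusted p = 0.151). C1qc overlapped, at 5.98 and 11.4 CPM in knockout and 4.71 and 6.81 CPM in wildtype libraries (0.59 ± 0.29, adjusted p = 0.294).

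These missed the threshold in the fit above but passed in others. With the replicate number as a block the adjusted p values were 0.00245, 0.00125 and 0.0153 for C1qa, C1qb and C1qc at log2 fold changes of 0.66, 0.65 and 0.57. Without knockout replicate 1 the log2 fold changes were 1.02, 0.93 and 0.98, and without wildtype replicate 2 they were 0.84, 0.93 and 0.88, all past the threshold. The C1q level in excitatory-like nuclei was 6.06% and 10.9% of that in cluster 17 for C1qa in knockout libraries, against 6.45% and 8.94% in wildtype libraries, in plain CPM. Knockout replicate 2 was the highest library of the 4 for each chain. The part of free RNA in these levels was not tested.

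**Figure D3:**
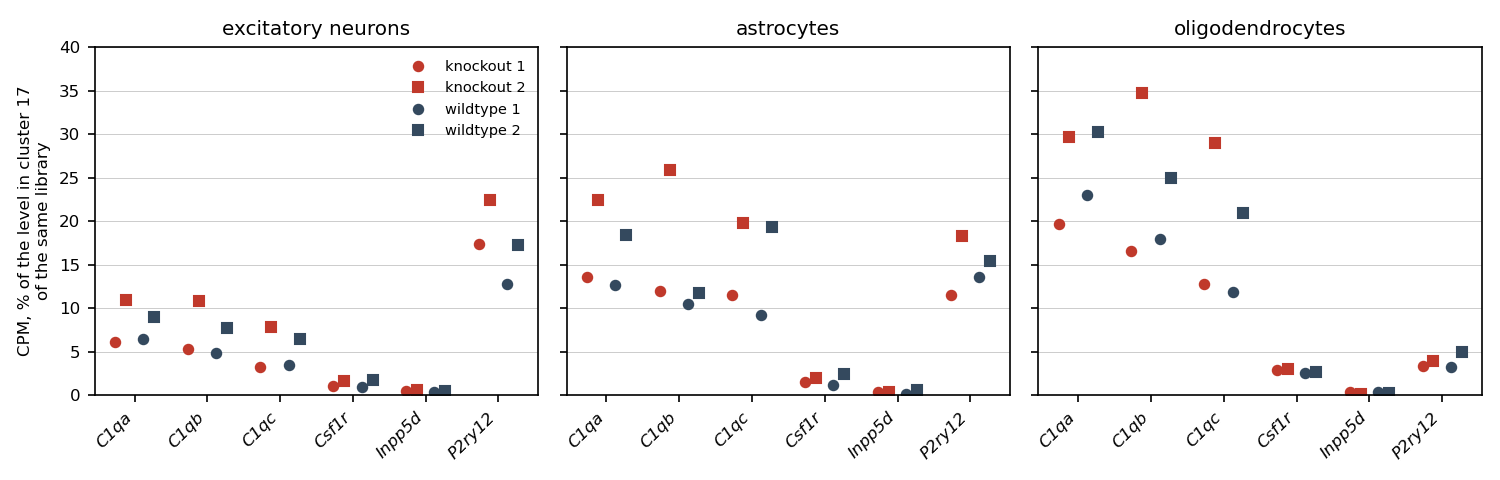
Level of C1q genes and microglia markers in other classes as a percent of their level in cluster 17 (plain CPM), knockout (red) left of wildtype (dark blue), circles and squares for replicates 1 and 2. C1qa in excitatory-like nuclei is at 6.06% and 10.9% in knockout and 6.45% and 8.94% in wildtype libraries.

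Of the 7 classes in which each chain was tested, C1qa and C1qb had a positive log2 fold change in 7 and C1qc in 6. Of all genes tested, 50.6% were positive in excitatory-like nuclei, 49.3% in astrocyte-like nuclei and 49.3% in cluster 17. The share of all genes with such a run of signs over the classes is not given here. The classes come from the same animals, so these signs are not independent of each other, and their count was not tested. In astrocyte-like nuclei C1qb had 28.3 and 46.1 CPM in knockout and 18.1 and 17.9 CPM in wildtype libraries (1.06 ± 0.29, edgeR's quasi-likelihood test, adjusted p = 0.285). By edgeR none of the 3 passed in a class, while 5, 5 and 3 classes had an unadjusted p under 0.05, and DESeq2 called none. In neuron subclasses C1qa passed in L4/5 IT-like nuclei (21.5 and 26.97 CPM in knockout and 8.51 and 14.97 CPM in wildtype libraries, 1.08 ± 0.27, adjusted p = 0.0432; 1.62% of genes called higher) and C1qb in L6 CT-like nuclei (16.3 and 19.6 CPM in knockout and 5.85 and 11.7 CPM in wildtype libraries, 1.06 ± 0.27, adjusted p = 0.0300; 2.81% called higher). Both calls were lost with DESeq2, without knockout replicate 2 (log2 fold changes 0.89 and 0.91) and without wildtype replicate 1 (0.69 and 0.61), and that of C1qb also without the low-count filter.

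None of the 3 regulators among the 9 genes rose past the threshold. Serping1 (chr2:84765387-84775444, minus strand), the C1 inhibitor, was at the limit of detection in excitatory-like nuclei, with 0.932 and 0.868 CPM in knockout and 0.610 and 0.632 CPM in wildtype libraries (0.53 ± 0.31, edgeR's quasi-likelihood test, adjusted p = 0.375). Fibroblast-like nuclei held more, at 12 and 6 UMIs in knockout and 7 and 11 in wildtype libraries, which overlap. Cd46 (chr1:195036826-195092249, minus strand) had 66.7 and 66.3 CPM in knockout and 67.6 and 67.6 CPM in wildtype excitatory-like nuclei (-0.02 ± 0.08, adjusted p = 0.898). It was tested in 7 classes and 14 subclasses and passed in none (0 and 1 at an unadjusted p under 0.05, 0 with DESeq2), with log2 fold changes from -0.63 to 0.28.

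Csmd2 (chr4:127987857-128567656, plus strand) was the one member that fell. Csmd2 overlaps Hmgb4os on its own strand, and Cd46 overlaps Gm37132 on its own strand, so strand cannot separate reads in those overlaps. Both also overlap genes on the other strand, among them Csmd2os and A330023F24Rik, and whether strand was used in counting is not stated. In excitatory-like nuclei Csmd2 had 582 and 569 CPM in knockout libraries and 733 and 774 CPM in wildtype libraries. The log2 fold change was -0.39 ± 0.07 (edgeR's quasi-likelihood test, adjusted p = 0.0152; 1.31% of genes called lower). Without the low-count filter it was -0.40 with an adjusted p of 0.0527 and did not pass.

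Among excitatory subclasses the fall was largest in cluster 1, led by Ntng2 and Oprk1, with 683 and 640 CPM in knockout and 1193 and 1223 CPM in wildtype libraries (-0.87 ± 0.08, edgeR, adjusted p = 4.54e-06; 1.47% called lower). L6b-like nuclei had 865 and 908 CPM in knockout and 1254 and 1283 CPM in wildtype libraries (-0.52 ± 0.10, edgeR, adjusted p = 0.0022; 0.336% called lower). Its log2 fold change was negative in 10 of 11 excitatory subclasses and clusters, of which 2 passed, and in 9 of 9 classes, of which 1 passed. L5/6 NP-like nuclei were the exception in sign, with 531 and 592 CPM in knockout and 465 and 599 CPM in wildtype libraries. Here too the signs come from the same animals and are not independent, and their count was not tested. The share of all genes with such a run of signs is not given for these groups either.

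**Figure D4:**
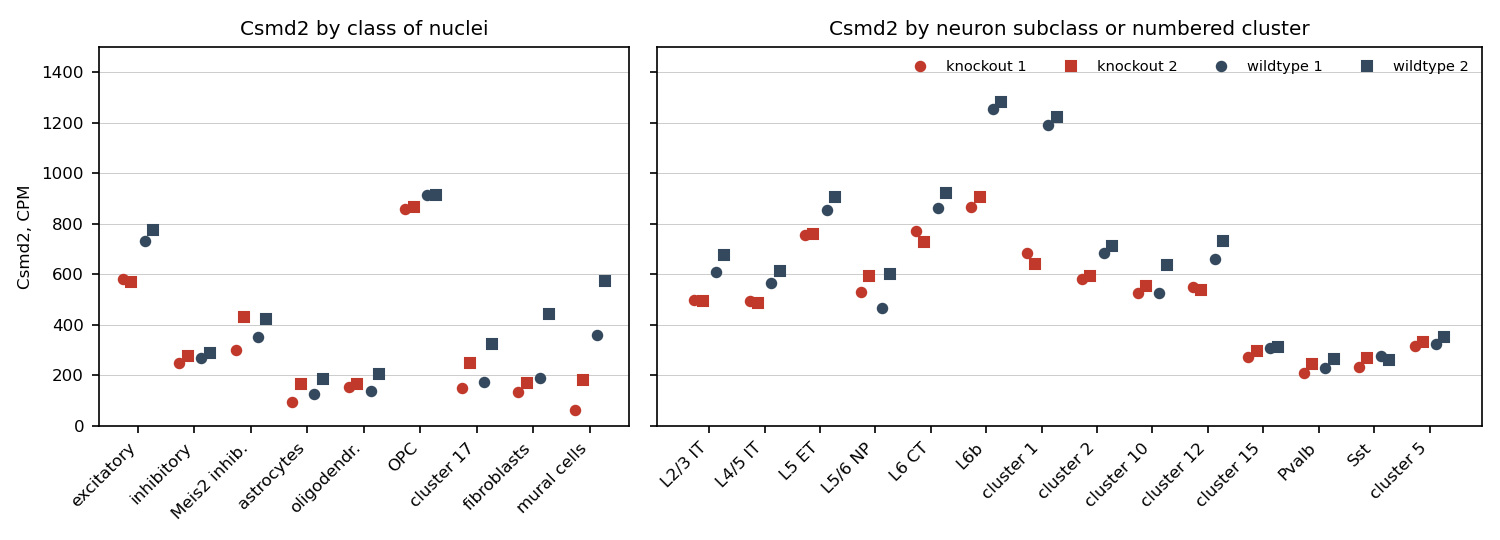
Csmd2 level (CPM) per class and per neuron subclass or cluster, knockout (red) left of wildtype (dark blue), circles and squares for replicates 1 and 2. In excitatory-like nuclei knockout libraries stand at 582 and 569 CPM, below wildtype libraries at 733 and 774 CPM.

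Inhibitory-like nuclei had 249 and 278 CPM of Csmd2 in knockout and 268 and 288 CPM in wildtype libraries, which overlap (-0.08 ± 0.10, edgeR's quasi-likelihood test, adjusted p = 0.772). The difference between the classes did not pass (-0.28 ± 0.07, adjusted p = 0.0587). Over the 9 classes the log2 fold change of Csmd2 ran from -1.73 to -0.08, so the fall was not largest in excitatory-like nuclei. The excitatory change minus that in mural-like nuclei was 1.48 ± 0.57, and minus that in fibroblast-like nuclei 0.80 ± 0.47. Neither passed. Unthinned, 4.26% and 9.09% of knockout and 15.7% and 15.6% of wildtype mural-like nuclei had a Csmd2 UMI. Oligodendrocyte-precursor-like nuclei, the tested class with the highest Csmd2 level, had 857 and 868 CPM in knockout and 913 and 914 CPM in wildtype libraries.

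**Figure D5:**
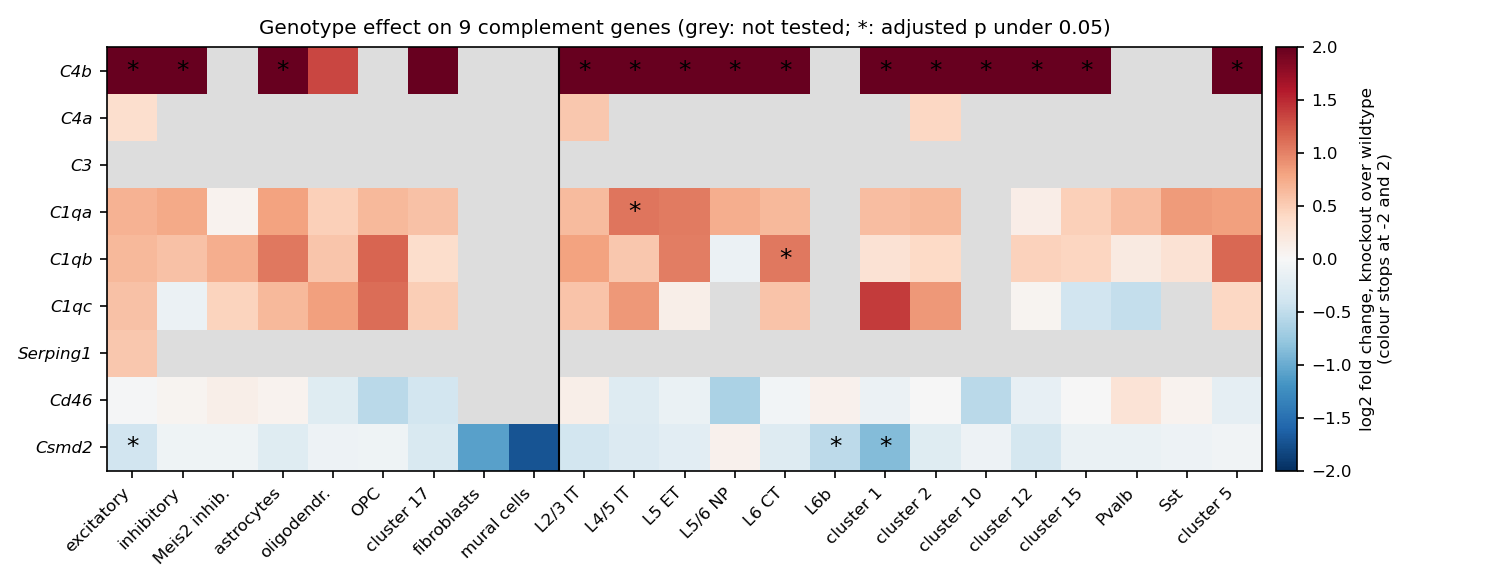
Log2 fold change, knockout over wildtype, as colour (red positive, blue negative, colour stopping at -2 and 2) for the 9 genes (rows) in each class, left of the line, and each neuron subclass or cluster, right of it, with grey for not tested and a star for an adjusted p under 0.05. C4b is red in every tested column, C1q genes are mostly pale red without a star, and Csmd2 is blue in all columns but L5/6 NP.

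Of the 51 further genes of the pathway listed, 37 could be tested in excitatory-like nuclei, of which 2 rose and 0 fell, beside 2.98% of all genes called higher and 1.31% lower, with a median log2 fold change of 0.01 beside 0.004 over all genes. Among 16 tested of 24 recognition, protease and terminal genes, Fcna, a ficolin that recognises sugars and overlaps Fcnaos on the other strand, rose with 2.80 and 3.99 CPM in knockout and 1.02 and 1.44 CPM in wildtype libraries (1.46 ± 0.27, edgeR's quasi-likelihood test, adjusted p = 0.0231, and 0.0936 without the low-count filter). None of 4 tested of 9 receptors passed, and 1 of 17 tested of 18 regulators did. That was Cd59b, a blocker of the membrane attack complex, with 13.5 and 12.98 CPM in knockout and 3.36 and 3.79 CPM in wildtype libraries (1.89 ± 0.14, adjusted p = 0.000218).

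Cd59b was also higher in L2/3 IT-like nuclei, with 28.5 and 21.5 CPM in knockout and 4.69 and 4.37 CPM in wildtype libraries (2.46 ± 0.21, edgeR, adjusted p = 0.000372). It also passed in L5 ET-like nuclei and clusters 1 and 2 at log2 fold changes of 1.73, 1.45 and 1.42, and each of these 3 calls was lost without knockout replicate 2 (1.79, 1.33 and 1.23) and without at least 1 of the wildtype libraries. Its paralogue Cd59a had 2.17 and 2.96 CPM in knockout and 1.32 and 3.79 CPM in wildtype excitatory-like nuclei, which overlap, and did not pass (adjusted p = 0.992). Fcna was higher in L6 CT-like nuclei, with 7.98 and 8.78 CPM in knockout and 1.35 and 1.63 CPM in wildtype libraries (2.48 ± 0.41, edgeR, adjusted p = 0.000807). Cr2, a receptor for C3 fragments, was lower in L4/5 IT-like nuclei, with 3.00 and 5.64 CPM in knockout and 12.2 and 11.3 CPM in wildtype libraries (-1.43 ± 0.36, edgeR, adjusted p = 0.0454; 1.04% called lower), a call lost with DESeq2, without knockout replicate 1 (-1.07) and without wildtype replicate 1 (-1.37). Csmd1, the relative of Csmd2, was lower in inhibitory-like nuclei, with 2945 and 3166 CPM in knockout and 3531 and 3556 CPM in wildtype libraries (-0.21 ± 0.05, edgeR, adjusted p = 0.0330; 0.325% called lower), a call lost with DESeq2 and without wildtype replicate 1 (-0.22). Its fall in oligodendrocyte-like nuclei, with 460 and 581 CPM in knockout and 828 and 806 CPM in wildtype libraries, was -0.65 ± 0.13 (edgeR, adjusted p = 0.0397; 0.38% called lower), and was lost without wildtype replicate 1 (-0.63) and in nuclei of at least 1000 UMIs (-0.54). In neuron subclasses Csmd1 was lower in cluster 1, with 4427 and 4831 CPM in knockout and 5367 and 5462 CPM in wildtype libraries (-0.23 ± 0.05, edgeR, adjusted p = 0.0151), a call lost with DESeq2 and without either wildtype library (adjusted p = 0.0589 and 0.0574). It was also lower in Sst-like nuclei, with 2799 and 2933 CPM in knockout and 3572 and 3659 CPM in wildtype libraries (-0.34 ± 0.06, edgeR, adjusted p = 0.00922; 0.34% called lower), a call lost with DESeq2 and without the low-count filter.

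Of 34 genes that start within 250000 bases of C4b, 29 were tested in excitatory-like nuclei and none passed (edgeR, 0 at an unadjusted p under 0.05, 0 with DESeq2). Of all genes tested there, 2.98% were called higher and 1.31% lower. The neighbours' median log2 fold change was 0.10 beside 0.004 over all genes, and 20 of the 29 were positive beside 50.6% of all genes. Pbx2, C4a and Tnxb had the smallest p values, and C2 and Cfb, complement genes beside C4b, did not pass either. In astrocyte-like nuclei 14 pathway genes were tested and none passed (edgeR, 1 at an unadjusted p under 0.05, 0 with DESeq2). The smallest p values were those of Masp1, a protease of the lectin pathway (-0.84 ± 0.33 on the log2 scale, adjusted p = 0.466), Clu, an inhibitor of the terminal complex (0.29 ± 0.16), and Masp2 (-0.47 ± 0.33). In cluster 17 none of 14 passed (edgeR, 0 at an unadjusted p under 0.05, 0 with DESeq2), with log2 fold changes of -0.47 ± 0.29 for Cr1l and -0.33 ± 0.27 for Sez6.

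The genes whose levels followed those of the members most closely were found over the 36 sums of 9 classes and 4 libraries, as a description. These sums share libraries and depth, and 19211 genes were compared by Pearson's r of log2(CPM + 1). C4b was most like 3222401L13Rik (r = 0.815), Tcfl5 (0.725), Izumo4 (0.708), Nprl3 (0.705) and Gmnn (0.693). C1qa was most like Ctsd (0.905), Nmt1 (0.891) and Rtn1 (0.863), Serping1 was most like Uaca (0.886), Gm48682 (0.870) and Col4a6 (0.861), and Csmd2 was most like Mmp16 (0.928), Sez6l (0.925) and Tmem132d (0.924).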

How the data were processed

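Single-nucleus RNA-seq was made from cortex of 2 knockout and 2 wildtype mice with the 10x 3′ chemistry, per the labels' protocols. Each library was deposited as a matrix of UMI counts, not normalized. The submitters' processing notes name Cell Ranger (version 7.1.0) and the build mm10. The sources used here do not say if introns or strand were counted or if the authors took out free RNA. All 4 libraries entered every comparison, and no sample column was left unused.

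Nuclei with at least 500 UMIs, 300 genes and no more than 5% of UMIs from mitochondrial genes passed, and Scrublet (expected rate 10%) marked 2464 doublets, 4.14% to 5.11% per library, which were removed. Clustering with scanpy 1.11.5 (Python 3.11.15) used counts scaled to 10000, 2000 variable genes, 30 principal components, 15 neighbours, resolution 1 and seed 1, and left out 832 genes, the complement genes and their neighbours within 250000 bases among them. Of 32 clusters 25 were named from markers, and 7, with 3106 nuclei (5.97%), were left out of the classes.

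Counts were summed per library and class, and tests needed 30 or more nuclei in every library, met by 9 classes and 14 neuron subclasses or clusters. edgeR 4.0.16 (R 4.3.3) with limma 3.58.1 fitted genotype alone, with TMM factors, filterByExpr by genotype (minimum count 10), glmQLFit, glmQLFTest and Benjamini-Hochberg adjustment over all genes of the fit, at a threshold of 0.05. The size of the log2 fold change divided by the square root of F gave the SE. Effects in 2 classes were compared by the genotype by class interaction, with library as a further term. Shares of nuclei used thinning to 1000 UMIs and exact Clopper-Pearson 95% intervals (scipy 1.17.1). A fold against 0 UMIs uses 3 UMIs over the group. The fits were tested on simulated data with known changes. Alternatives were RLE factors, no low-count filter, DESeq2 1.42.0, a replicate block, nuclei of at least 1000 UMIs, no ribosomal or mitochondrial genes, leaving out each library, no library term, and other thinning.

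All 9 members were named throughout. Of 51 other pathway genes those past the threshold were named, or the 3 with the smallest p, and likewise neighbours of C4b and the 5 or 3 genes most like a member. The members and lists were chosen with earlier results of these data known. Of 32285 gene identifiers 32235 (99.85%) were found in GENCODE vM21 (GRCm38), which gave positions, and the authors' annotation may differ. One result that the naming rule would have given is not reported here.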

Additional observations from a re-analysis of the deposited data

Results flagged for a closer look

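The genotype effect on C4b differed between classes of the same libraries. The log2 fold change in excitatory-like nuclei minus that in another class was 3.56 ± 0.39 for astrocyte-like, 4.40 ± 0.52 for oligodendrocyte-like and 5.72 ± 0.98 for fibroblast-like nuclei, by edgeR's quasi-likelihood test of the genotype by class term. Fibroblast-like nuclei held 2 and 6 C4b UMIs in knockout and 7 and 4 in wildtype libraries. Against cluster 14 of the astrocyte-like nuclei alone the difference was 4.22 ± 0.41 (edgeR, adjusted p = 1.61e-20, 0.566% of genes called), an alternative added after the data were seen. The spread in that fit was pooled over genes and rests on 4 animals, so the size of the p value does not measure replication.

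Cr2 also differed between excitatory-like and oligodendrocyte-like nuclei, by -0.91 ± 0.25 (edgeR, adjusted p = 0.0343). It had 5.67 and 6.12 CPM in knockout and 7.66 and 8.29 CPM in wildtype excitatory-like nuclei, and 43.1 and 49.8 CPM in knockout and 29.3 and 36.2 CPM in wildtype oligodendrocyte-like nuclei. The call was lost when any single library was left out, without the library term and in nuclei of at least 1000 UMIs.

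C4b was also present in the 7 clusters left without a name, which entered no comparison. There it had 14.9 and 22.0 CPM in knockout (12 and 29 UMIs, plain CPM), against 3.49 and 2.42 CPM in wildtype libraries (7 and 3 UMIs), with no test.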

How the results depend on the processing

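Of the alternatives to the principal results, 105 kept direction and side of the threshold (counts: stayed within 1.5 times), 3 were lost, 5 newly passed, 23 moved and 0 reversed. For the other results these numbers were 508, 42, 23, 18 and 0. Only counts of genes or subclasses and shares of nuclei could be labelled as moved. Leaving out 1 library at a time gave C4b log2 fold changes of 5.56 to 5.93 in excitatory-like, 3.32 to 4.37 in inhibitory-like, 1.83 to 2.66 in astrocyte-like and 0.62 to 2.87 in oligodendrocyte-like nuclei. It gave differences of 2.91 to 4.10 (excitatory minus astrocyte), 4.90 to 6.51 (minus fibroblast) and 2.68 to 5.32 (minus oligodendrocyte). C4b in cluster 17 passed without the low-count filter (3.01, adjusted p = 0.00997 by edgeR) and with the replicate block (3.04, 0.0192), and in oligodendrocyte-like nuclei with the block (1.33, 0.0304). Csmd2 in excitatory-like nuclei was -0.40 without the filter and did not pass (0.0527). Genes called in excitatory-like nuclei numbered 822, against 261 without the filter, 3234 with the replicate block and 813 to 2270 with 1 library left out. In inhibitory-like nuclei they numbered 177, against 116, 1103 and 143 to 798, and 82 with DESeq2, and in astrocyte-like nuclei 34, against 204, 327 and 22 to 317, and 20 in nuclei of at least 1000 UMIs. C4b was called in 10 excitatory subclasses and clusters, and in 6 with DESeq2. The share of excitatory-like nuclei with a C4b UMI was 4.38% and 5.13% in knockout libraries at 2000 UMIs, and 8.64% and 8.21% in knockout and 0.177% and 0.206% in wildtype libraries unthinned. Deviations of libraries with the same replicate number correlated at r = 0.632 in excitatory-like, 0.346 in inhibitory-like and 0.248 in astrocyte-like nuclei, over 2 pairs, and the number coincides with sex by RNA. With the replicate block 9 results newly passed and 0 were lost. The cause of these changes was not tested. With 2 animals per genotype, small classes and low counts limit what could be detected.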
